A study of Mus musculus with 9 samples.

Results

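The data described are the transcripts of 10 genes of microglia and brain macrophages in the cortex of mouse embryos at E12.5. The genes were Csf1r, Cx3cr1, Aif1, C1qa, C1qb, C1qc, Tyrobp, Trem2, Fcrls and Mrc1. They were listed by name, as known genes of these cells, and each symbol matched 1 Ensembl identifier of the count table. They are thus 10 of 57010 genes, of which 26872 had a read in at least 1 embryo. All 10 passed the filter for testing, a mean of at least 10 reads over the embryos, which left 16518 genes.

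The study removed Cnot3, which encodes a subunit of the CCR4-NOT complex that shortens poly(A) tails, and asked how transcripts of the cortex change without it and whether they change in the same way when Trp53 is also removed. Cortices were dissected from single embryos and sequenced as 1 library each, in 3 control embryos (Ctrl, labelled WT), 3 Cnot3 cKO embryos (cKO) and 3 Cnot3;p53 dcKO embryos (dcKO). The cKO embryos carried Emx1-Cre and floxed Cnot3, and the dcKO embryos carried floxed Trp53 as well. Which of these alleles the Ctrl embryos carried is not given in the sources used here.

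Emx1-Cre acts in the radial glia of the dorsal telencephalon and in the cells they give rise to. Microglia are not among these: they descend from macrophage progenitors of the yolk sac, enter the neural tube from outside before neurons are born in number, and spread through it as amoeboid cells that take up dying cells. Other macrophages settle at the borders of the brain, in the meninges and along vessels, and are told from microglia in part by the mannose receptor encoded by Mrc1. The survival of both depends on the receptor encoded by Csf1r, and their identity depends on the ETS-family transcription factor PU.1, encoded by Spi1.

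Total counts were between 21193798 and 45073349 reads per embryo. The checks of the labels and of the libraries set the dcKO embryos apart from one another. The normalised Cnot3 level stood at 13.2% to 15.6% of the Ctrl mean in the cKO embryos, and at 6.63%, 44.1% and 17.2% in dcKO replicates 1, 2 and 3. Trp53 stood at 68.1% to 69.5% of the Ctrl mean in cKO, and at 6.23%, 46.2% and 8.52% in dcKO, so dcKO replicate 2 kept the most of both targeted genes. This library also had the most reads of the 9 and, thinned to the size of the smallest library, the fewest genes with a read, 17873 against 19027 to 21049 in the others. In genes with an exon GC content of 55% or more, the median log2 ratio to the Ctrl mean was -1.13 in dcKO replicate 1 and -1.28 in dcKO replicate 2 but 0.19 in dcKO replicate 3, and it was between -0.53 and -0.30 in the cKO embryos. Because several members are GC-rich, the results on the members in dcKO are given below with and without these embryos and with a correction for GC content, and the medians of the other lists in dcKO against Ctrl are given with their range under the same alternatives.

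**Figure D1:**
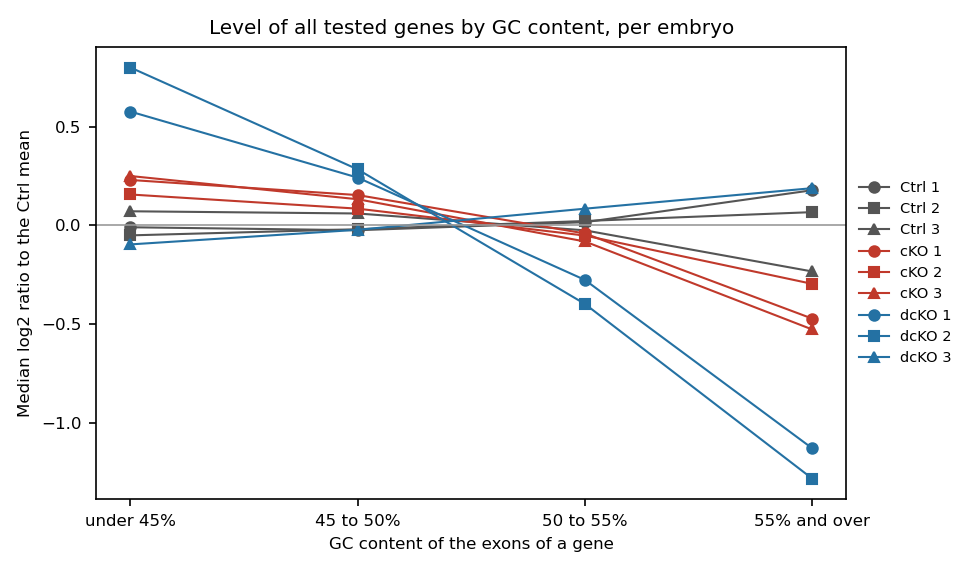
Median log2 ratio to the Ctrl mean (vertical axis) of the genes in each class of exon GC content (horizontal axis, percent), with 1 line per embryo. The lines of dcKO replicates 1 and 2 fall from 0.58 and 0.80 in the genes under 45% GC to -1.13 and -1.28 in those of 55% or more, and the line of dcKO replicate 3 runs from -0.10 to 0.19.

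The promoters of the members are shown because PU.1 binds the letters GAGGAA, or TTCCTC on the other strand, in many genes of macrophages. RefSeq windows on GRCm38.p6 were matched by symbol for 7 members, and 6 of the 7 held these letters in the 250 bases before the start of the gene, as did 23.3% of 32851 windows of all genes. The longer form GAGGAAGT, which contains the shorter one, was in 2.44% of all windows and in that of C1qc alone among the 7 members. The window of Cx3cr1 held neither form. A match of letters is a description of the sequence, and no binding was measured here. The stretches below are written 5′ to 3′ on the strand of the gene with the matches in capitals, 60 bases for each of 5 members and the whole 250 bases for Mrc1.
C1qb (chr4:136886201-136886260, - strand): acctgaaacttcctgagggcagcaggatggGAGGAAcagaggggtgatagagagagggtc
C1qc (chr4:136893075-136893134, - strand): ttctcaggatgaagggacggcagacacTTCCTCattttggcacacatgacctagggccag
Trem2 (chr17:48346334-48346393, + strand): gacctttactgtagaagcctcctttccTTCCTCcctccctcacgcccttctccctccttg
Aif1 (chr17:35176053-35176112, - strand): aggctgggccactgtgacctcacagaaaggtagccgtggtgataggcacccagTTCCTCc
Fcrls (chr3:87263636-87263695, - strand): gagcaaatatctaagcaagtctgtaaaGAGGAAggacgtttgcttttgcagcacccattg
Mrc1 (chr2:14229164-14229413, + strand): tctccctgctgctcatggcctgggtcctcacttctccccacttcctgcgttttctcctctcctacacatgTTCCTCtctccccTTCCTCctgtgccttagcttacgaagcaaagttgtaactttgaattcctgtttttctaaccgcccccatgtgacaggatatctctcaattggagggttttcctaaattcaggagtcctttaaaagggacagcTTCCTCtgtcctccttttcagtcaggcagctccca
Mrc1 held 3 matches, all as TTCCTC, and each of the other 5 members held 1. In C1qb and Fcrls the letters read GAGGAA along the gene, and in C1qc, Trem2 and Aif1 they read TTCCTC.

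The genes lie on different chromosomes except for the C1q cluster and for Aif1 and Trem2 (GENCODE M21 on GRCm38). C1qb (ENSMUSG00000036905), C1qc (ENSMUSG00000036896) and C1qa (ENSMUSG00000036887) are neighbours on chromosome 4, with C1qb at 136880129 to 136886187, C1qc at 136889804 to 136893065 and C1qa at 136895917 to 136898803, all on the minus strand. Aif1 and Trem2 both lie on chromosome 17, from 35170991 and from 48346401. The base content of their exons spans a wide range, from 43.4% GC in Mrc1 and 48.5% in Fcrls through 50.3% to 54.8% in Cx3cr1, Trem2, Aif1, Csf1r and Tyrobp to 57.4%, 57.5% and 59.5% in C1qb, C1qc and C1qa.

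All 10 members were detected in every Ctrl and every cKO embryo, at low levels. In Ctrl, the level per kilobase of exon was highest for C1qb, at 7.38 ± 0.92 CPM per kb (SD, n = 3), where CPM is the read count of a gene scaled to a common library size. C1qa followed at 4.52 ± 0.45, Tyrobp at 3.85 ± 1.2 and Csf1r at 2.71 ± 0.42 CPM per kb. Next came C1qc at 2.62, Fcrls at 2.49, Cx3cr1 at 1.84 and Mrc1 at 1.80 CPM per kb, and Aif1 at 0.872 ± 0.18 and Trem2 at 0.249 ± 0.12 stood last. Of the 9 pairs of neighbours in this order, 4 did not overlap between embryos, namely C1qb above C1qa, Fcrls above Cx3cr1, Mrc1 above Aif1 and Aif1 above Trem2. In cKO the first 3 genes per kb were the same, at 10.2, 6.57 and 6.45 CPM per kb, with Fcrls and Mrc1 next at 5.74 and 5.22. In dcKO the first 3 were also C1qb, C1qa and Tyrobp, at 3.51, 2.25 and 1.99 CPM per kb, but no pair of neighbours was free of overlap. These lengths are the union of the exons of all isoforms, which lowers the per-kb level of a gene with long alternative exons such as Trem2.

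Added up, the 10 transcripts came to 59.9, 69.4 and 63.2 CPM in the Ctrl embryos, with libraries scaled by TMM factors. In the cKO embryos the sums were 118, 148 and 72.8 CPM, and in the dcKO embryos they were 40.6, 27.0 and 49.6 CPM. Every cKO embryo lay above every Ctrl embryo and every dcKO embryo lay below, and the 3 cKO embryos were spread more widely than the others. The means were 64.2 ± 4.80, 113 ± 38.1 and 39.1 ± 11.4 CPM (SD, n = 3 each), so the cKO mean was 1.76 times and the dcKO mean 0.609 times the Ctrl mean, and the cKO mean was 2.90 times that of dcKO. When single embryos were left out, the first ratio was between 1.49 and 2.08 and the second between 0.527 and 0.703, and the dcKO mean was between 0.293 and 0.409 times that of cKO. In RNA from whole tissue, fewer cells of a type and less RNA in each cell cannot be told apart.

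**Figure D2:**
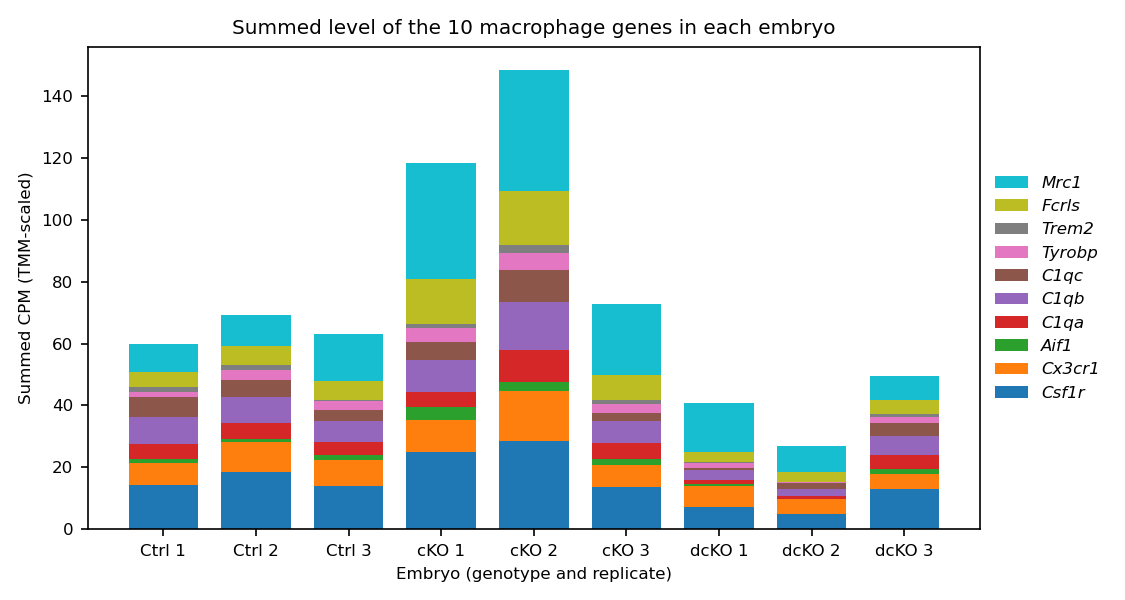
Summed level of the 10 transcripts (vertical axis, CPM with TMM factors) in each embryo (1 bar each, by genotype and replicate), with the part of each gene stacked in its own colour. The cKO embryos lie between 72.8 and 148 CPM, the Ctrl embryos between 59.9 and 69.4 and the dcKO embryos between 27.0 and 49.6.

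Csf1r and Cx3cr1 encode cell-surface receptors, the first for the growth factors CSF1 and IL-34 and the second for the neuronal chemokine fractalkine. Csf1r (ENSMUSG00000024621, chromosome 18) was counted at 14.4, 18.5 and 14.1 CPM in Ctrl, at 24.8, 28.6 and 13.7 CPM in cKO and at 7.14, 4.81 and 12.9 CPM in dcKO. Replicates 1 and 2 of cKO were above all Ctrl embryos and replicate 3 was below them, while all dcKO embryos were below all Ctrl and all cKO embryos. In edgeR's quasi-likelihood test the log2 fold change against Ctrl was 0.52 ± 0.39 (SE; adjusted p = 0.442) in cKO and -0.92 ± 0.39 (adjusted p = 0.173) in dcKO, and that of dcKO against cKO was -1.44 ± 0.39 (adjusted p = 0.884). Cx3cr1 (ENSMUSG00000052336, chromosome 9) was counted at 7.08, 9.61 and 8.21 CPM in Ctrl, at 10.6, 16.2 and 7.02 CPM in cKO and at 6.86, 4.94 and 5.01 CPM in dcKO. Its order was the same, with cKO replicate 3 just below the Ctrl embryos and dcKO below both other groups. The log2 fold changes were smaller, 0.44 ± 0.34 in cKO, -0.56 ± 0.34 in dcKO and -1.01 ± 0.34 between dcKO and cKO (edgeR adjusted p = 0.452, 0.315 and 0.930).

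C1qa, C1qb and C1qc encode the chains of C1q, the part of the first complement component that recognises its targets and that microglia make in the brain. C1qb was counted at 8.86, 8.31 and 6.92 CPM in Ctrl, at 10.4, 15.7 and 7.17 CPM in cKO and at 3.14, 2.04 and 6.28 CPM in dcKO. The dcKO embryos lay below all others, with replicate 3 close to the lowest Ctrl embryo, and cKO replicate 3 lay within the Ctrl range. The log2 fold change of C1qb was 0.47 ± 0.43 in cKO, -1.08 ± 0.44 in dcKO and -1.54 ± 0.44 between dcKO and cKO (edgeR adjusted p = 0.542, 0.159 and 0.917). C1qa was counted at 4.72, 5.15 and 4.21 CPM in Ctrl, at 4.77, 10.4 and 5.38 CPM in cKO and at 1.48, 1.02 and 4.52 CPM in dcKO. Here dcKO replicate 3 was within the Ctrl range while replicates 1 and 2 were well under it, and cKO replicate 2 stood alone at the top. C1qc was counted at 6.46, 5.40 and 3.33 CPM in Ctrl, at 5.93, 10.2 and 2.54 CPM in cKO and at 0.82, 1.93 and 4.12 CPM in dcKO. It was the one member whose cKO and dcKO embryos overlapped, since cKO replicate 3 was below dcKO replicate 3. The log2 fold changes of C1qa and C1qc were 0.54 and 0.30 in cKO and -1.02 and -1.15 in dcKO, with edgeR adjusted p-values between 0.267 and 0.804.

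Trem2 is a receptor for lipids and cell debris, and Tyrobp encodes DAP12, the adaptor through which it signals. Tyrobp (ENSMUSG00000030579, chromosome 7) was counted at 1.66, 3.15 and 2.89 CPM in Ctrl, at 4.45, 5.62 and 2.84 CPM in cKO and at 1.48, 0.586 and 1.92 CPM in dcKO. Replicates 1 and 2 of cKO were above all Ctrl embryos, and dcKO replicates 1 and 2 were below all of them. Its log2 fold change was 0.74 ± 0.51 in cKO, -0.96 ± 0.51 in dcKO and -1.70 ± 0.52 between dcKO and cKO (edgeR adjusted p = 0.394, 0.263 and 0.930). Trem2 (ENSMUSG00000023992) was the lowest member, with 35, 34 and 15 reads in Ctrl, 39, 66 and 31 reads in cKO and 12, 0 and 22 reads in dcKO. The 0 reads of dcKO replicate 2 allow a level of up to 0.0763 CPM (3 reads, on the TMM scale, counting error only). The Trem2 counts of Ctrl and cKO overlapped, those of cKO and dcKO did not, and its log2 fold changes of 0.44 in cKO and -1.62 in dcKO had SEs of 1.02 and 1.07.

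Aif1 encodes IBA1, the calcium-binding protein by which microglia are commonly stained. Aif1 (ENSMUSG00000024397) was counted at 1.16, 1.20 and 1.65 CPM in Ctrl, at 4.01, 2.64 and 1.79 CPM in cKO and at 0.465, 0 and 1.43 CPM in dcKO. All cKO embryos were above all Ctrl embryos, although replicate 3 only just, and dcKO replicate 2 again had 0 reads where dcKO replicate 3 was within the Ctrl range. The log2 fold change was 1.07 ± 1.01 in cKO and -1.12 ± 1.03 in dcKO (edgeR adjusted p = 0.547 and 0.517).

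Fcrls is an Fc receptor-like gene used as a microglial marker in the mouse, and Mrc1 encodes the mannose receptor CD206 of border-associated macrophages. Fcrls (ENSMUSG00000015852, chromosome 3) was counted at 5.09, 6.36 and 5.97 CPM in Ctrl, at 14.4, 17.6 and 8.18 CPM in cKO and at 3.25, 3.03 and 4.61 CPM in dcKO. The 3 genotypes did not overlap, with cKO on top and dcKO at the bottom. Fcrls had a log2 fold change of 1.21 ± 0.34 in cKO (edgeR adjusted p = 0.0776, DESeq2 adjusted p = 0.00927) and of -1.89 ± 0.34 between dcKO and cKO (edgeR adjusted p = 0.335, DESeq2 adjusted p = 8.24e-05). Mrc1 (ENSMUSG00000026712, chromosome 2) was counted at 9.03, 10.01 and 15.4 CPM in Ctrl, at 37.5, 39.2 and 23.1 CPM in cKO and at 15.7, 8.63 and 7.91 CPM in dcKO. Every cKO embryo was above every other embryo, while dcKO and Ctrl embryos were intermixed. Mrc1 had the largest mean difference from Ctrl of the 10 in cKO, a log2 fold change of 1.53 ± 0.35 (edgeR adjusted p = 0.0606, DESeq2 adjusted p = 0.00139), and differed from cKO in dcKO by -1.63 ± 0.35 (edgeR adjusted p = 0.567, DESeq2 adjusted p = 0.00446). Against Ctrl its dcKO value was -0.10 ± 0.35 (edgeR adjusted p = 0.880), and this sign turned when Ctrl replicate 3, dcKO replicate 2 or dcKO replicate 3 was left out (0.18, 0.04 and 0.03) and in limma-voom (0.38).

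**Figure D3:**
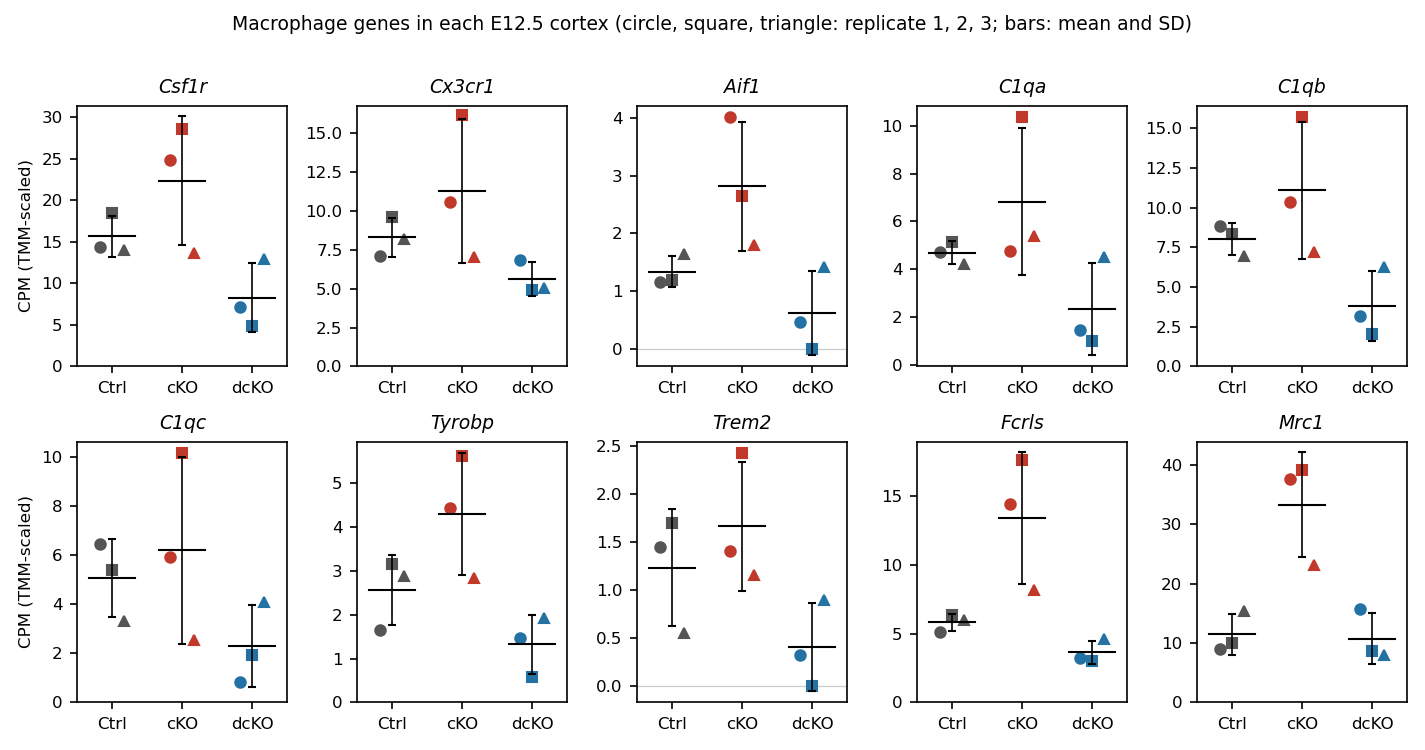
Level of each of the 10 genes in each embryo (points, CPM with TMM factors) by genotype, 1 panel per gene with its own axis, and bars for the mean and SD of 3 embryos. Mrc1 and Fcrls lie higher in all cKO embryos than in any Ctrl embryo, and Aif1 and Trem2 have 0 reads in dcKO replicate 2.

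In cKO against Ctrl, no member passed the threshold in edgeR, which was an adjusted p under 0.05 over all genes and a fold change of more than 2. This threshold was passed by 0.0182% of all genes. DESeq2, the tool the study names, called Mrc1 and Fcrls higher, where it called 5.05% of all genes higher and 3.4% lower. The same pair had an unadjusted edgeR p under 0.05 with a higher level, as did 13.6% of all genes. The cKO embryos were all above the Ctrl embryos in 3 members, Aif1, Fcrls and Mrc1, against 26.9% of all genes. This share is close to that of the members, so the number of non-overlapping members is not a result about them. The mean of all 10 members was higher in cKO than in Ctrl, with a median log2 fold change of 0.53 beside 0.02 over all genes tested.

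In dcKO against Ctrl, edgeR and DESeq2 both called 0 members. Over all genes edgeR called 0%, and DESeq2 called 4.79% higher and 3.45% lower. Csf1r and C1qb had an unadjusted edgeR p under 0.05 with a lower level, as did 10.5% of all genes. In 4 members, Csf1r, Cx3cr1, C1qb and Fcrls, all dcKO embryos were below all Ctrl embryos, against 11.6% of all genes. The means of all 10 were lower in dcKO, with a median log2 fold change of -0.99 beside 0.11 over all genes. The comparison of cKO with Ctrl and that of dcKO with Ctrl share the 3 Ctrl embryos.

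The largest and most uniform difference was between the mutants. In dcKO against cKO all 10 members had lower means, with a median log2 fold change of -1.59 beside 0.06 over all genes, and Trem2 and Aif1 differed most, by -2.06 and -2.19, with SEs of 1.08 and 1.05. All dcKO embryos were below all cKO embryos in 9 members, every one but C1qc, against 4.26% of all genes. With 3 embryos against 3, the exact two-sided permutation p of each of these 9 was 0.1, the smallest this design allows. In 8 members the unadjusted edgeR p was under 0.05, against 2.4% of all genes lower at that level, and the exceptions were Aif1 and Trem2. After adjustment over all genes edgeR called 0 members (0.0121% of all genes), while DESeq2 called Fcrls and Mrc1 lower, as it did 0.322% of all genes, with 0.0309% called higher. The fold changes of this contrast do not rest on the Ctrl embryos, which entered the fit for its estimate of the spread. Markers of red cells, platelets and vessels were lower in dcKO than in cKO as well, with medians of -1.08 for erythroid, -0.94 for platelet, -0.81 for endothelial and -0.54 for pericyte markers. With a dcKO embryo left out or the GC correction these were between -1.21 and -0.91, -1.38 and -0.64, -1.0003 and -0.74, and -1.11 and -0.41, the lowest of each without dcKO replicate 3. Cortical progenitor markers went the other way, with a median of 0.62 and values of 0.35 to 0.90 under these alternatives. Of these 8 markers 7 were higher in dcKO than in cKO, 4 of them at an unadjusted edgeR p under 0.05 (1.85% of all genes). The part of any of these cells in the difference was not tested.

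**Figure D4:**
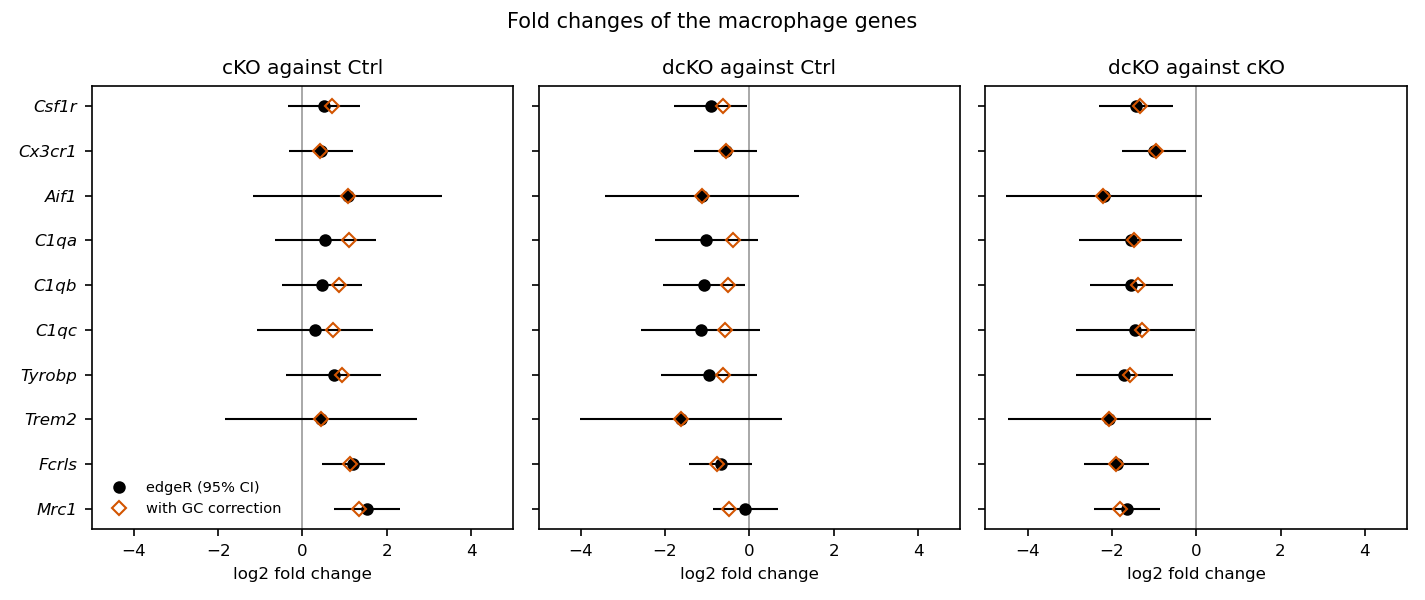
Log2 fold change of each member (black points, edgeR, with lines for the 95% confidence interval, and open diamonds for the value after the GC correction) in cKO against Ctrl, dcKO against Ctrl and dcKO against cKO. All 10 black points lie above 0 in the first comparison, from 0.30 to 1.53, and all lie below 0 in the third, from -2.19 to -1.01.

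The embryos of a genotype were not alike in these genes. Replicate 2 of cKO was above every Ctrl embryo in all 10 members and was the highest of the 9 embryos in 9 of them. Replicate 1 of cKO was above every Ctrl embryo in 7 members, while replicate 3 was above in 4 and below every Ctrl embryo in 3. Relative to the Ctrl mean, the median member stood at 1.44, 1.99 and 1.02 times in cKO replicates 1, 2 and 3. In dcKO it stood at 0.424, 0.281 and 0.787 times, and 9, 10 and 5 members were below every Ctrl embryo. Replicate 2 of dcKO was the lowest of the 9 embryos in 8 members, and it is the embryo that kept the most Cnot3 and Trp53 reads.

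Leaving out single embryos moved the calls. Without dcKO replicate 3, whose GC profile differed from the other 2, edgeR called Csf1r, C1qa, C1qb and C1qc lower in dcKO than in Ctrl (median over the members -1.57) and called 8 members lower in dcKO than in cKO (median -2.14), all but Cx3cr1 and Trem2. Calls over all genes also became more frequent without this embryo, with 14.3% of genes called lower in dcKO than in Ctrl and 5.6% lower than in cKO. The call of Fcrls and Mrc1 as higher in cKO than in Ctrl appeared when dcKO replicate 2 or 3 was left out, and that of Mrc1 alone when dcKO replicate 1 was, and then 5.71%, 4.26% and 2.63% of all genes were called higher in cKO without dcKO replicate 2, 3 and 1. Without dcKO replicate 2 the medians were -0.62 against Ctrl and -1.35 against cKO, and without dcKO replicate 1 they were -0.82 and -1.62, with 0 members called in either of these comparisons by edgeR in both cases. Without cKO replicate 2 the median in cKO against Ctrl was 0.19, and C1qc turned to -0.28. The mean in dcKO was lower than in cKO for all members tested in every alternative tried, which was 10 except where more than 10 reads were asked of every embryo, which left out Aif1 and Trem2.

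The members were also compared with genes of like GC content. Among genes of 55% GC or more, the class of the C1q genes, the median log2 ratio of means was -0.44 in cKO and -0.54 in dcKO, and among genes under 45% GC, the class of Mrc1, it was 0.22 and 0.50. After a correction for GC content in each library, the median over the members was 0.90 in cKO, -0.60 in dcKO and -1.52 between dcKO and cKO. In cKO the C1q genes moved from 0.54, 0.47 and 0.30 to 1.10, 0.87 and 0.72 for C1qa, C1qb and C1qc, and edgeR called Mrc1 at 1.34. In dcKO against Ctrl they moved from -1.02, -1.08 and -1.15 to -0.38, -0.51 and -0.58. The difference between the mutants thus changed little with the correction, and the values of the C1q genes against Ctrl changed by more than 1.5 times.

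The code of each embryo holds a number that some embryos share, and what it stands for is not stated. A Ctrl and a cKO embryo shared it in 2 cases. In one, cKO replicate 2 was above Ctrl replicate 1 in 10 of 10 members, by 1.57 to 4.34 times, and in the summed level by 2.48 times. In the other, cKO replicate 3 was above Ctrl replicate 2 in 4 members, and the ratio of the sums was 1.05. Most members were thus higher in cKO in the first pair but not in the second, where the summed level was nearly equal. In the single pair of Ctrl and dcKO embryos, dcKO replicate 3 was above Ctrl replicate 3 in 3 members, and the ratio of the sums was 0.785. No dcKO embryo shared its number with a cKO embryo, so that comparison has no such pair.

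The makeup of the summed level is given by each member's share of it. Because shares add up to the whole, a higher share of one gene lowers those of the others, and the means of Csf1r, Cx3cr1 and C1qb were higher in cKO although their shares were lower. The share of Fcrls was 8.5% to 9.4% in Ctrl and 11.2% to 12.2% in cKO, and that of Csf1r was 22.3% to 26.6% and 18.8% to 21.0%. Mrc1 made up 17.9 ± 5.55% of the sum in Ctrl, 29.9 ± 3.07% in cKO and 28.8 ± 11.6% in dcKO (SD, n = 3 each). The single dcKO values of Mrc1 were 38.6%, 32.0% and 15.9%, so replicate 3 lay within the Ctrl range of 14.4% to 24.3% and replicates 1 and 2, the libraries with few reads of GC-rich genes, lay above it. The C1q genes, which are GC-rich where Mrc1 is not, together made up 27.8 ± 5.31%, 21.0 ± 3.31% and 20.7 ± 8.55%, with 13.4%, 18.5% and 30.1% in the dcKO embryos. The part of base content in these shares was not tested. Per read of Csf1r there were 0.754 ± 0.297 reads of Mrc1 in Ctrl, 1.52 ± 0.157 in cKO and 1.53 ± 0.823 in dcKO, and 0.374 ± 0.044, 0.597 ± 0.017 and 0.481 ± 0.138 reads of Fcrls. The Pearson r of a member's log2 level with the mean of the other 9 was between 0.730 and 0.984 for the other members, with Csf1r the highest, and 0.635 for Mrc1 (9 embryos). With the genotype means taken off, r was 0.959 for Csf1r, 0.563 for Cx3cr1, 0.508 for C1qc and 0.200 for Mrc1, and between 0.725 and 0.923 for the others. These values describe 9 libraries, which the genes share together with their depth.

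Other genes of these cells were read from lists fixed by name. Of 42 further genes of microglia and macrophages 38 were tested, with a median log2 fold change of 0.55 in cKO, -0.38 in dcKO and -0.75 between dcKO and cKO, and edgeR called 0 in any comparison. With a dcKO embryo left out or the GC correction, the dcKO median against Ctrl was between -0.53 and -0.29, and that against cKO was -1.27 without dcKO replicate 3 and between -0.83 and -0.81 otherwise. At an unadjusted edgeR p under 0.05, 6 were higher and 0 lower in cKO, 1 was higher and 4 lower in dcKO, and 0 were higher and 16 lower in dcKO against cKO. Over all genes the shares at this level were 13.6% higher and 10.9% lower in cKO, 15.3% and 10.5% in dcKO, and 1.85% and 2.4% between dcKO and cKO, so the counts against Ctrl were near those of all genes, apart from the few lower genes in cKO and higher genes in dcKO. DESeq2 called 2 higher in cKO, among them the Fc receptor gene Fcgr3. Over all genes it called 5.05% higher in cKO. Fcgr3 was counted at 1.90, 3.45 and 3.77 CPM in Ctrl, at 9.22, 10.5 and 5.97 CPM in cKO and at 1.72, 1.53 and 2.36 CPM in dcKO. Its cKO embryos were above all others, and Ctrl and dcKO overlapped. In dcKO DESeq2 called the integrin gene Itgb2, the lysosomal membrane gene Laptm5 and the nucleotide receptor gene P2ry6 lower than in Ctrl (-2.09, -1.83 and -2.10). Against cKO it called Fcgr3, Laptm5, P2ry6, the cathepsin gene Ctss and Nckap1l, an actin regulator of blood cells, lower in dcKO (-2.20, -1.32, -2.65, -1.18 and -1.37). Over all genes it called 3.45% lower in dcKO than in Ctrl and 0.322% lower than in cKO. Tmem119, a gene tied to mature microglia, was counted at 2.35 to 3.56 CPM in Ctrl, 0.759 to 1.31 CPM in cKO and 0.229 to 2.73 CPM in dcKO. Its order in cKO was opposite to that of the members. It was 1 of 8 tested genes of this list that stood lower in cKO than in Ctrl, where 30 stood higher. Among other microglial genes of the list, the cKO means of P2ry12, P2ry13, Gpr34 and Olfml3 were 1.17, 1.12, 2.79 and 1.43 times the Ctrl means. Ctrl and cKO embryos overlapped in the first 3 of these. Siglech, which was under the filter, stood at 0.26 times. Spi1, the PU.1 gene, had 16, 20 and 23 reads in Ctrl, 23, 58 and 11 in cKO and 14, 0 and 28 in dcKO.

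Genes of border-associated macrophages had the highest median of the macrophage lists in cKO, 1.19 over the 10 of 15 genes that were tested, with 6 higher and 0 lower at an unadjusted edgeR p under 0.05 (13.6% of all genes higher). By log2 fold change alone 8 of the 10 were higher and 2 lower. With the GC correction this median was 1.02, near the 0.90 of the members, and that of the further microglia and macrophage genes was 0.60. DESeq2 called 3 higher (5.05% of all genes), Ms4a6c, the endocytic adaptor gene Dab2 and the transcription factor gene Maf (2.29, 1.16 and 1.12, adjusted p = 0.00445, 0.012 and 0.0399), and edgeR called 0. Dab2 was counted at 19.8, 26.5 and 31.2 CPM in Ctrl, at 54.7, 72.3 and 45.9 CPM in cKO and at 42.5, 22.6 and 19.6 CPM in dcKO. The cKO embryos were above all others, as they were for Mrc1. The hyaluronan receptor gene Lyve1 was at 1.61, 2.45 and 5.17 CPM in Ctrl and at 8.78, 10.7 and 7.06 CPM in cKO (DESeq2 adjusted p = 0.0502), and F13a1, a coagulation factor gene of these macrophages, was at 9.86 to 13.4 CPM in Ctrl and 14.0 to 28.7 CPM in cKO (DESeq2 adjusted p = 0.0624). In dcKO the median of this list was 0.09 against Ctrl, a value whose sign did not hold, with -0.40 without dcKO replicate 1, 0.13 without replicate 2, -0.01 without replicate 3 and -0.14 with the GC correction. Against cKO it was -1.12, between -1.36 and -1.13 under these alternatives, where 7 of the 10 were lower at an unadjusted p under 0.05 (2.4% of all genes). DESeq2 called Pf4 and Stab1 lower in dcKO than in Ctrl (-1.41 and -1.58), beside 3.45% of all genes, and Pf4 is also a platelet gene.

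**Figure D5:**
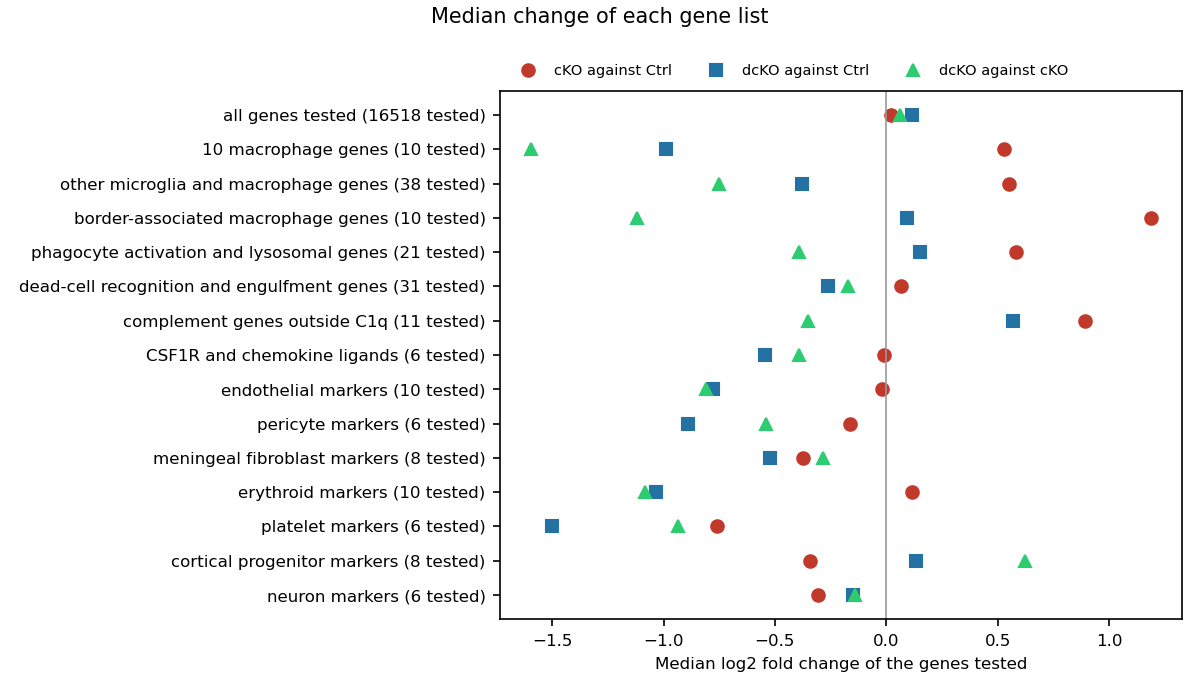
Median log2 fold change of each gene list (points, edgeR) in the 3 comparisons, beside the median of all genes tested. The members stand at 0.53, -0.99 and -1.59 and the border-associated macrophage genes at 1.19, 0.09 and -1.12, where all genes are at 0.02, 0.11 and 0.06. These values are without the GC correction.

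A list of ligand genes held those of Csf1r, Cx3cr1 and Trem2 and other signals that act on macrophages (Csf1, Il34, Cx3cl1, Apoe, Tgfb1, Cxcl12 and Gas6). Of the 7 genes 6 were tested, all but Il34, and edgeR and DESeq2 called 0. The median was -0.01 in cKO, 0.36 there with the GC correction, and -0.54 in dcKO, where it was -1.25 without dcKO replicate 3 and -0.18 with the GC correction. At an unadjusted edgeR p under 0.05 the only one past it against Ctrl was Cxcl12, a chemokine gene of meninges and vessels, lower in dcKO (-0.61). Its cKO embryos, at 25.4 to 26.5 CPM, were also all below the Ctrl embryos, at 33.7 to 38.5 CPM. Csf1, the growth factor gene, was at 12.1, 10.7 and 12.1 CPM in Ctrl, at 15.0, 17.6 and 13.1 CPM in cKO and at 13.3, 8.15 and 14.1 CPM in dcKO, so the cKO embryos were all above the Ctrl embryos by a small margin. Its log2 fold change was 0.39 in cKO and 0.02 in dcKO, and that of the fractalkine gene Cx3cl1 was -0.20 and -0.48.

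Genes of the recognition and engulfment of dead cells did not share a direction against Ctrl. Of 31 tested, 7 were higher and 4 lower in cKO at an unadjusted edgeR p under 0.05, with a median of 0.07, where 13.6% of all genes were higher and 10.9% lower at this level. In dcKO the median was -0.26, between -0.58 and -0.14 under the alternatives. DESeq2 called Pros1, which encodes a bridge between dead cells and their receptors, and the engulfment adaptor gene Gulp1 higher in cKO (1.15 and 1.14) and the receptor gene Tyro3 lower (-1.13). Over all genes it called 5.05% higher and 3.4% lower in cKO. In dcKO it called Gulp1 higher (1.17) and 5 lower, Tyro3, Itgb3, Stab1, Lrp1 and P2ry6, where it called 4.79% of all genes higher and 3.45% lower. P2ry6 was also called lower than in cKO, and the median between dcKO and cKO was -0.17, and -0.49 without dcKO replicate 3. In that comparison 22 of the 31 were lower in dcKO and 9 higher. At an unadjusted edgeR p under 0.05, 5 were lower and 0 higher, beside 2.4% and 1.85% of all genes. Many of these genes are also used by neural and vascular cells.

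Of 21 tested genes of phagocyte activation and lysosomes, DESeq2 called 6 higher and 0 lower in cKO, and 3 higher in dcKO, while edgeR called 0. DESeq2 called 5.05% of all genes higher in cKO and 4.79% in dcKO. At an unadjusted edgeR p under 0.05, 6 were higher and 2 lower in cKO, and 5 higher and 1 lower in dcKO, where the shares of all genes were 13.6% higher and 10.9% lower in cKO and, for dcKO, 15.3% higher and 10.5% lower. The median was 0.58 in cKO and 0.15 in dcKO, and the latter was between -0.15, without dcKO replicate 3, and 0.24 under the alternatives. Between dcKO and cKO it was -0.39, and -0.04 without dcKO replicate 2. The 3 shared names, Ctsl, Lamp2 and Lipa, encode a lysosomal protease, a lysosomal membrane protein and the lysosomal acid lipase, and had log2 fold changes of 1.31, 1.07 and 1.38 in cKO and 1.11, 1.13 and 1.30 in dcKO. Spp1, the osteopontin gene expressed by some phagocytic microglia, had 1, 3 and 4 reads in Ctrl, 113, 113 and 29 reads in cKO and 16, 25 and 11 reads in dcKO. The genotypes did not overlap in Spp1, and DESeq2 called it higher in cKO than in Ctrl and lower in dcKO than in cKO (adjusted p = 5.23e-06 and 0.0474). Gpnmb, a glycoprotein gene of lipid-laden macrophages, had 0, 0 and 3 reads in Ctrl, 15, 16 and 33 reads in cKO and 9, 4 and 13 reads in dcKO. DESeq2 also called the lipid droplet gene Plin2 higher in cKO (1.28).

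Of 14 complement genes outside C1q 11 were tested, and DESeq2 called the C3a receptor gene C3ar1 and the clusterin gene Clu higher in cKO (1.41 and 1.56), while in dcKO it called the protease gene C1ra higher. Over all genes it called 5.05% higher in cKO and 4.79% higher in dcKO. C1ra had 2, 0 and 3 reads in Ctrl, 30, 22 and 15 reads in cKO and 76, 0 and 33 reads in dcKO, so its fold change rests on a Ctrl group near 0 and 1 dcKO embryo had no read. The median of the list was 0.89 in cKO and 0.57 in dcKO, and the latter was between 0.08 and 0.42 under the alternatives, and the median between dcKO and cKO was -0.35. The chemokine and cytokine genes were mostly under the filter, and Cxcl16 alone of 12 was tested, at a log2 fold change of 1.32 in cKO and 2.05 in dcKO, where DESeq2 called it (adjusted p = 0.0485). Its dcKO values were 0.684, 0.891 and 3.34 CPM, and without replicate 3 the edgeR log2 fold change was 0.94.

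Markers of other cells were read beside the members. Monocyte and granulocyte markers, 10 genes, summed to 0.696 to 2.03 CPM in Ctrl, 0.896 to 1.73 CPM in cKO and 0.465 to 1.25 CPM in dcKO, and 7 of them had under 30 reads over all embryos, with 4 at 0 reads in all. Lymphocyte and mast cell markers, also 10 genes, summed to at most 1.25 CPM in any embryo, and 8 had under 30 reads in all. The markers of these lists thus had few reads in any group. The part of blood-borne white cells in the members' values was not tested. Red-cell and vessel markers were lower in dcKO, as the members were. Erythroid markers had a median log2 fold change of 0.12 in cKO and -1.04 in dcKO, with DESeq2 calling 0 of 10 in cKO and 5 of 10 lower in dcKO, beside 3.45% of all genes. At an unadjusted edgeR p under 0.05, 3 erythroid markers were higher in cKO (13.6% of all genes). The erythroid dcKO median was between -1.46 and -0.45 under the alternatives. Endothelial markers summed to 262 to 349 CPM in Ctrl, 240 to 343 CPM in cKO and 171 to 184 CPM in dcKO.

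The endothelial gene Cdh5 was at 60.7, 66.3 and 76.2 CPM in Ctrl, at 67.1, 79.5 and 49.7 CPM in cKO and at 29.6, 31.6 and 30.6 CPM in dcKO, and DESeq2 called it lower in dcKO than in either other group (-1.15 and -1.10), as it did Tie1 and Esam against Ctrl. Over all genes DESeq2 called 3.45% lower in dcKO than in Ctrl and 0.322% lower than in cKO. The endothelial median in dcKO was -0.78, between -1.03 and -0.76 under the alternatives. Pericyte markers had a median of -0.16 in cKO and -0.89 in dcKO (-1.22 to -0.60 under the alternatives), platelet markers of -0.76 and -1.50 (-1.98 to -1.21) and meningeal fibroblast markers of -0.37 and -0.52 (-0.99 to -0.44). Markers of cortical progenitors had medians of -0.34 and 0.13 (-0.09 to 0.45), and those of neurons of -0.31 and -0.15, where the latter was -0.66 without dcKO replicate 2, -0.42 with the GC correction, -0.11 without dcKO replicate 3 and near 0 without dcKO replicate 1. The part of vessels, blood and dissection in the members' values was not tested.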

How the data were processed

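Cortical RNA of 9 single embryos (3 per genotype) was sequenced as stranded poly(A) libraries. The authors trimmed paired-end reads with Cutadapt, aligned them to mm39 with STAR and deposited raw counts, the reads featureCounts assigned to each gene, with no normalization. Genotypes and replicate numbers came from the labels, and each embryo is a separate animal. The members and gene lists were chosen with earlier results of these data known. Counts were tested in R 4.3.3 with edgeR 4.0.16 (TMM, quasi-likelihood, all 9 embryos in 1 model, no covariates) for genes with a mean of at least 10 reads, with Benjamini-Hochberg adjustment, and called at an adjusted p under 0.05 and a log2 fold change beyond 1 in either direction. DESeq2 1.42.0 and limma 3.58.1 (voom) were alternatives. Of the 3 tools, edgeR and DESeq2 were tested on simulated data and limma-voom was not. The correction for GC content (loess, span 0.3) and the list medians without single dcKO embryos were added after the data were seen. Lengths, GC content and coordinates are those of GENCODE M21 on GRCm38. Tables were handled in Python 3.11.15 (SciPy 1.17.1, pandas 2.3.3, NumPy 2.4.6). The text names all 10 members and, from each list, genes called by edgeR or DESeq2 or among the 3 with the smallest edgeR p. Other list genes named, namely Tmem119, P2ry12, P2ry13, Gpr34, Olfml3, Siglech, Spi1, Csf1 and Lyve1, were chosen after their values were seen. The values of 1 list gene are not reported here. Intervals of fold changes are edgeR's and include the spread between embryos, and floors of 0 reads cover counting error only.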

Additional observations from a re-analysis of the deposited data

Results flagged for a closer look

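In C1qa, Tyrobp and Fcrls every cKO embryo was above the Ctrl mean and every dcKO embryo below it. This is a position relative to a mean, and neither mutant differed from Ctrl past the threshold in edgeR in these genes. The contrast of dcKO with cKO gave log2 fold changes of -1.56 for C1qa, -1.70 for Tyrobp and -1.89 for Fcrls. Because the 3 genes were picked for this arrangement, that contrast is no independent test of it. In edgeR 0 of the 3 passed after adjustment over all genes, and all 3 had an unadjusted p under 0.05. DESeq2 called Fcrls (adjusted p = 8.24e-05) and not C1qa or Tyrobp (0.342 and 0.153). The margin was small in C1qa, where cKO replicate 1 stood at 4.77 CPM and dcKO replicate 3 at 4.52 CPM, both within the Ctrl range, beside a Ctrl mean of 4.70 CPM.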

How the results depend on the processing

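The number of genes called depended on the tool and the setting. In cKO against Ctrl edgeR called 3 genes, and DESeq2 called 1393, limma-voom 2627, edgeR without a filter 813, with only the 6 embryos compared 2316, with the GC correction 623 and at an adjusted p under 0.1 1037, and the range with 1 embryo left out was 0 to 1535. In dcKO against Ctrl the count was 0, against 1331, 3810, 692, 5 (GC correction) and 993 (adjusted p under 0.1), and 0 to 3305 with 1 embryo left out. In dcKO against cKO it was 2, against 57 (DESeq2), 9 (limma-voom), 8 (no filter), 0 (6 embryos), 8 (GC correction) and 4 (adjusted p under 0.1), and 0 to 1178 with 1 embryo left out. Of the 10 members, edgeR called 0 in each comparison. In cKO against Ctrl DESeq2 called 2, limma-voom 3, no filter 1, 6 embryos 2, the GC correction 1 and an adjusted p under 0.1 2, and 0 to 2 were called with 1 embryo left out. In dcKO against Ctrl limma-voom called 3, with a range of 0 to 4, and in dcKO against cKO DESeq2 called 2, with a range of 0 to 8. Genes of all lists called by DESeq2 numbered 18, 30 and 11 in the 3 comparisons, against 0 by edgeR. Over all genes DESeq2 called 5.05%, 4.79% and 0.0309% higher and 3.4%, 3.45% and 0.322% lower in these comparisons. With the mean of the members' log2 levels in place of their sum, dcKO was 0.419 of Ctrl. This value includes Aif1 and Trem2 at 0 reads in dcKO replicate 2. C1qc in cKO ranged from -0.28 to 0.66 and Mrc1 in dcKO from -0.52 to 0.18 with 1 embryo left out, and limma-voom gave 0.38 for Mrc1. The cause of these changes was not tested.

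With the replicate block edgeR called 0 genes in cKO and 0 between dcKO and cKO, and the members' medians were 0.52, -1.03 and -1.65 in the 3 comparisons, with 0 called. Embryos of the same replicate number did not deviate together (mean r -0.116 over 9 pairs, 0.058 over the other 18), so no pairing by replicate number was seen. The number shared in the embryo codes is another one. Its pairs had r of 0.136 (Ctrl replicate 1 and cKO replicate 2), 0.003 (Ctrl replicate 2 and cKO replicate 3) and -0.346 (Ctrl replicate 3 and dcKO replicate 3). Aif1 and Trem2 had the fewest reads of the members, and their 0 reads in dcKO replicate 2 were in the deepest library.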

Other observations

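The genes outside the list whose log2 levels followed the members most closely over the 9 embryos were Lyz2 and Stat3 (Pearson r 0.989 and 0.987 with the mean standardised level of the members), and the first 10 lay between 0.954 and 0.989. Of these 10, Lyz2 (macrophage lysozyme), Olfml3 (a gene of microglia) and Vav1 (a signalling gene of blood cells) are in the lists read here. With the genotype mean taken off each embryo, the first 10 lay between 0.963 and 0.992, with Olfml3, Lyz2 and Stat3 again among them. Each of these r describes 9 libraries out of 16518 genes searched, and no test was made.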
